A study of Mus musculus with 159 samples.

Results

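BC018473, a long non-coding RNA gene on mouse chromosome 11, divided the mammary tumors of this cross into 82 tumors with a high signal and 77 with a low signal, of 159 in all. The members were chosen by the measured signal of BC018473 itself. A tumor was assigned to the high group when its deposited log2 signal for BC018473 was above 9.4 and to the low group when it was at or below 9.4. All tumors came from female mice of a cross between the Diversity Outbred (DO) population, at its seventh generation, and mice carrying the polyoma middle T antigen (PyMT) transgene, with 1 tumor and 1 array per animal. The transgene is driven by the mammary tumor virus promoter on the FVB/NJ background and induces mammary tumors without further treatment, and the tumors of both groups were left to grow until about 100 days of age. Each animal therefore carries 1 FVB/NJ set of chromosomes and a mixture of DO founder genomes, and the DO genotype of each animal was not analysed here. The labels give a single group of tumors, so the groups compared here come from a measured value and not from a treatment or a genotype. Total RNA of whole tumors was hybridised to Affymetrix Gene ST arrays, and the values are on the log2 scale, where a difference of 1 is a doubling of signal. The question was which other genes differed between BC018473 high and low tumors, with attention to the neighbors of BC018473 and to interferon-induced genes.

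Interferons are secreted proteins that cells release upon sensing viral nucleic acid or other danger signals. They bind receptors whose kinases activate transcription factors, and these bind interferon-stimulated response elements in the promoters of a large group of antiviral genes. Long non-coding RNAs are transcripts without a protein product, and some of them act on genes next to their own locus.

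The BC018473 probe set covers a gene annotated as a lncRNA of 5717 bases at chr11:116752167-116757883 (GRCm38). The values used for the assignment are a description and carry no test. In the high tumors the signal had a lowest value of 10.55, a median of 12.84 and a highest value of 13.11, and in the low tumors these values were 5.32, 5.64 and 8.97. The mean was 12.75 ± 0.35 (SD, n = 82 tumors) in the high group and 5.95 ± 0.74 (SD, n = 77 tumors) in the low group, a difference of 6.80 on the log2 scale. With most low tumors at or near the background level described next, no fold is given. The high tumors lay close together, with 79 of 82 above 12, while the low tumors extended upward from the floor of the array. Of the 77 low tumors, 45 lay at or below a background level of 5.76, 57 lay at or below 6, 7 lay above 7 and 3 above 8. The background level is the 95th percentile of the mean signals of 1218 olfactory, vomeronasal and taste receptor genes, taken as genes that a mammary tumor does not express. The tumors nearest to the threshold were at 8.97, 8.97 and 8.13 below it and at 10.55 and 11.84 above it, so a gap of 1.58 separates the groups.

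**Figure D1:**
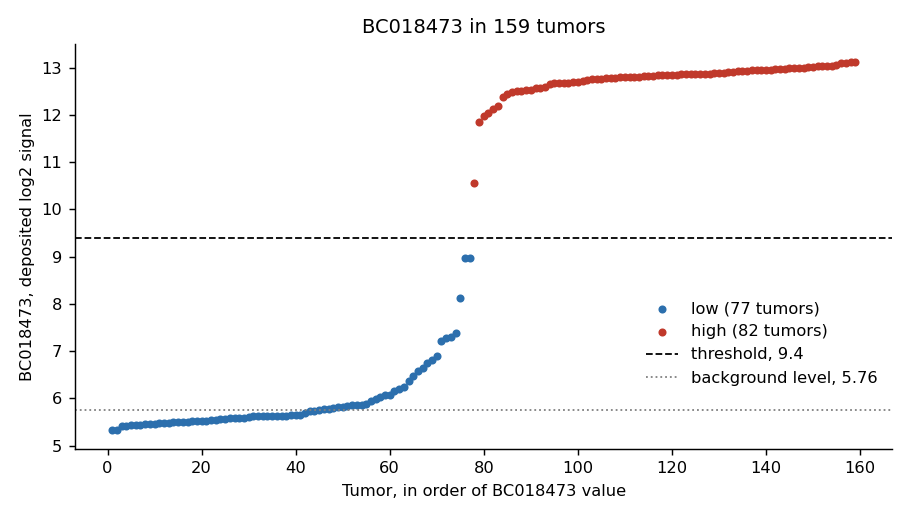
Deposited log2 signal of BC018473 (vertical axis) in 159 tumors placed in order of that signal (horizontal axis), with high tumors in red and low tumors in blue. The dashed line is the threshold of 9.4 and the dotted line the background level of 5.76. The 82 high tumors lie between 10.55 and 13.11 and the 77 low tumors between 5.32 and 8.97.

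Both groups were present throughout the collection of animals. Animal numbers are the only label that orders the animals, and blocks of 100 consecutive numbers are not a labelled batch. High tumors were 15 of 27, 9 of 26, 21 of 41, 18 of 28, 15 of 32 and 4 of 5 in successive blocks, and within-block differences below use the first 5 of these. The median signal of an array ranged from 6.98 to 7.18 in the high group and from 6.81 to 7.17 in the low group, with a difference of means of 0.011 (two-sided permutation test, 100000 resamples, p = 0.13). Two-sided permutation of the median correlation of an array with all others gave p = 0.59. Of 6 arrays that correlated less with the rest, 5 were from high tumors, and 6 tumors that stood apart by a high signal of T cell genes were all in the low group. Each tumor counts as an independent sample in the p-values below. The labels do not say which animals are siblings, so relatedness was not modelled. Siblings share DO founder genomes, so these p-values may be too small.

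Of 18953 other genes tested, 0.754% differed between high and low tumors at an adjusted p under 0.05 (limma, Benjamini-Hochberg over all genes tested). The signal was higher in high tumors for 39 interferon-induced genes of a list described below and for 66 other genes, together 0.554% of all genes, and lower for 38 genes (0.200%). An unadjusted p under 0.05 was reached by 2733 genes (14.4%). The absolute difference of the genes past the threshold ranged from 0.047 to 1.27, 30 of them differed by at least 0.5, and of these 29 were higher and 1, C1qtnf1, was lower. The median difference over all genes was 0.0014. Within the 5 blocks of animal numbers, all but 5 of the higher genes and 25 of the 38 lower genes had the same sign in every block. In RNA of whole tumors, fewer cells of a type and less RNA per cell cannot be told apart.

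Near BC018473 the differences fell on a few genes. Of 46 genes tested whose midpoint lies within 1 Mb of the midpoint of BC018473, 5 (10.9%) differed, against 0.676% of 17455 genes on other chromosomes (91 higher and 27 lower). St6galnac1, St6galnac2 and Snhg16 were higher in high tumors, and Cdk3 and Mir6516 were lower. St6galnac1 and St6galnac2 encode sialyltransferases that add sialic acid to the N-acetylgalactosamine of O-linked glycans, Snhg16 is a lncRNA that hosts small nucleolar RNAs, Cdk3 is annotated as a transcribed pseudogene in the reference strain and Mir6516 is a miRNA gene.

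St6galnac1 (chr11:116765025-116775507) is the nearest measured gene, 15.2 kb from BC018473 between midpoints. Its signal had a lowest value of 5.33, a median of 6.25 and a highest value of 7.93 in the high tumors and 5.10, 5.53 and 9.02 in the low tumors. Most low tumors lay below most high tumors, with 79 of 82 high tumors above the median of the low group, but 5 low tumors reached 6.69 or more and 1 of them held the highest value of all. The means were 6.29 ± 0.44 (SD, n = 82) and 5.64 ± 0.56 (SD, n = 77), a difference of 0.65 ± 0.080 (SE) with an adjusted p of 4.89e-10 (limma). In the 5 blocks the difference ranged from 0.33 to 1.01. The median of the low group lies under the background level of 5.76 and that of the high group above it.

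St6galnac2 (chr11:116676703-116695782), on the other side of BC018473 at 68.8 kb, had a signal above background in every tumor. Its lowest, median and highest values were 9.56, 10.85 and 11.91 in the high tumors and 8.59, 10.32 and 12.30 in the low tumors. The ranges overlapped almost fully and the low tumors were the more spread, yet 72 of 82 high tumors lay above the low median. The difference was 0.52 ± 0.097 (SE; adjusted p = 0.000226, limma), with block values from 0.30 to 0.81. Snhg16, at 81.3 kb, had values of 6.81, 7.56 and 8.71 in the high tumors and 6.45, 7.26 and 8.17 in the low tumors. The difference was 0.31 ± 0.059 (SE; adjusted p = 0.000307, limma), and 69 high tumors lay above the low median. Cytoglobin (Cygb), a heme protein gene just beyond Snhg16, had a difference of 0.26 ± 0.080 (SE) and did not pass (adjusted p = 0.101, limma).

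The lower neighbors differed by less. Cdk3, at 537 kb, had a median of 6.09 in the high tumors and 6.17 in the low tumors, and its highest value was 6.63 in the high group and 7.32 in the low group. The difference in means was -0.18 ± 0.040 (SE; adjusted p = 0.00375, limma) and came with a wider spread of the low tumors (SD 0.33 against 0.15). Cdk3 did not pass in the rank test, while Mir6516, Snhg16, St6galnac1 and St6galnac2 did. Mir6516, at 322 kb on the other side, had medians of 7.21 and 7.39, and its difference was -0.17 ± 0.037 (SE; adjusted p = 0.00205, limma). The array reports the miRNA gene and does not separate its arms. The mature sequences from RefSeq (GRCm38.p6, plus strand, chr11:117077370-117077391 and chr11:117077412-117077433) are shown because Mir6516 is the only miRNA gene among the differing neighbors, 5′ to 3′ with the seed, bases 2 to 8, in capitals.
mmu-miR-6516-5p: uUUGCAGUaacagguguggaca
mmu-miR-6516-3p: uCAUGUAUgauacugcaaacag

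The other 41 neighbors within 1 Mb did not pass the threshold. Among them are genes that lie between or beside those that differed. Mxra7, at 60.7 kb, had a difference of 0.06, Jmjd6, which encodes a hydroxylase, had 0.05 at 85.6 kb, and Srsf2, a splicing factor gene, had -0.05 at 96.8 kb. Differences other than that of Cygb ranged from -0.10 (Exoc7) to 0.09 (Trim47).

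Further out on chromosome 11 the share of genes past the threshold was smaller. It was 2 of 57 genes (3.51%) from 1 to 2 Mb and 2 of 90 (2.22%) from 2 to 5 Mb. From 5 to 10 Mb it was 0 of 37, and from 10 to 20 Mb 4 of 269 (1.49%). Beyond 20 Mb it was 12 of 999 (1.20%), and over the whole chromosome 25 of 1498 (1.67%). Of the 37 genes from 5 to 10 Mb, 0 also passed in the rank test with adjustment. At an unadjusted p under 0.05, 2 of these 37 were higher and 5 lower in limma, and 3 and 9 in the rank test. Of the 13 genes past the threshold within 20 Mb, 8 were higher, and 3 of these, Lgals3bp, Dhx58 and Ifi35, belong to the interferon-induced list described below. Rnf213, which encodes a large ubiquitin ligase, was higher at 2684 kb with a difference of 0.33 ± 0.081 (SE; adjusted p = 0.0169, limma).

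C1qtnf1, which encodes a secreted protein of the C1q and tumor necrosis factor related family, had the largest negative difference of any gene past the threshold. It lies at 1685 kb. Its lowest, median and highest values were 6.96, 8.27 and 9.98 in the high tumors and 6.97, 9.23 and 10.79 in the low tumors. Only 10 of 82 high tumors lay above the low median, although the ranges shared most of their extent. The difference was -0.58 ± 0.115 (SE; adjusted p = 0.000644, limma). It was negative in all 5 blocks but uneven, from -1.17 to -0.0090.

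**Figure D2:**
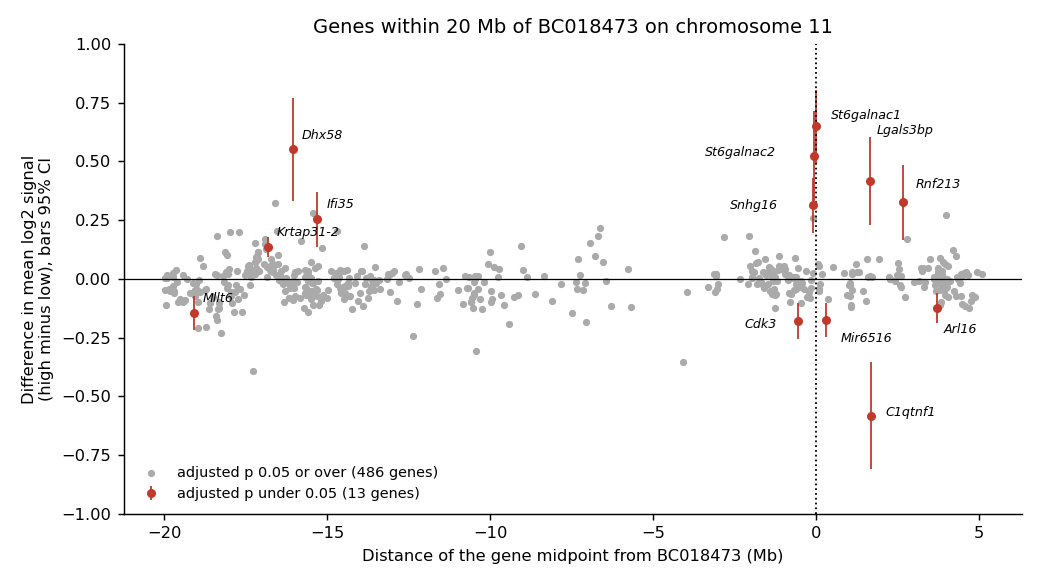
Difference in mean log2 signal, high minus low (vertical axis), of 499 genes within 20 Mb of BC018473 on chromosome 11 against the distance of the gene midpoint from BC018473 in Mb (horizontal axis). Red points are the 13 genes with an adjusted p under 0.05, with bars for the 95% confidence interval, and grey points are the other 486. St6galnac1 (0.65), St6galnac2 (0.52) and Snhg16 (0.31) stand together at the position of BC018473, and C1qtnf1 (-0.58) is the lowest point.

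St6galnac1 and St6galnac2 were the only sialyltransferase genes past the threshold in limma and in the rank test, of 16 measured. The median difference over the family was 0.019. St6galnac4 had -0.09, St6galnac3 and St6galnac6 had differences of 0.00 when rounded, St6galnac5 had 0.19 (adjusted p = 0.25, limma) and St6gal1, which adds sialic acid to N-linked glycans, had 0.05.

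Most genes past the threshold lie away from BC018473. Beyond 20 Mb or on another chromosome there were 130, of which 97 were higher and 33 lower in high tumors. Interferon-induced genes made up 36 of the 97. Over the whole genome, the interferon-induced list had 60 genes, 52 of them measured, and 39 of the 52 were higher in high tumors and 0 lower in limma. At an unadjusted p under 0.05 these counts were 48 and 0, and in a Mann-Whitney rank test with adjustment over all genes 42 and 0. All 52 differences were positive, with a median of 0.41, against a median of 0.0014 over all genes. The mean signal of the 52 genes had a lowest value of 6.82, a median of 8.40 and a highest value of 9.36 in the high tumors and 6.79, 7.72 and 9.27 in the low tumors. Both groups thus held tumors with low and tumors with high signals of these genes, and the groups differed in where most tumors lay. Among the genes of the list not measured by a probe set with 1 gene symbol were Ifi44, Isg15, Oas1g, Ifi47, Igtp, Irgm2 and Gbp2.

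The largest difference of any gene was that of Oas2 (chromosome 5), which encodes an enzyme that makes 2′-5′ oligoadenylate upon binding double-stranded RNA. Its lowest, median and highest values were 5.95, 9.28 and 11.05 in the high tumors and 5.84, 7.61 and 11.07 in the low tumors. The ranges coincided, and 69 of 82 high tumors lay above the low median. The difference was 1.27 ± 0.187 (SE), or 2.41-fold, with an adjusted p of 8.27e-07 (limma) and block values from 0.94 to 1.85. Other genes of the same pathway also rose. Oasl2 differed by 0.85, Oas1a by 0.72, Oasl1 by 0.55 and Oas3 by 0.45.

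Usp18, which encodes the protease that removes ISG15 from proteins and restrains signaling from the interferon receptor, had values of 6.65, 9.90 and 11.29 in the high tumors and 5.92, 8.35 and 11.42 in the low tumors. The ranges again coincided, with the high median far above the low median. The difference in means was 1.05 ± 0.180 (SE; adjusted p = 3.81e-05, limma), with block values from 0.68 to 1.58. Ifit1, whose product binds viral RNA that lacks cap methylation, had values of 5.89, 9.23 and 10.41 in the high tumors and 5.57, 7.95 and 10.63 in the low tumors. Its difference was 0.91 ± 0.176 (SE; adjusted p = 0.000448, limma). Irf7, the transcription factor that amplifies the production of type I interferon, had medians of 10.19 and 9.16 and a difference of 0.87 ± 0.149 (SE; adjusted p = 3.81e-05, limma). In each of these genes 67 or 68 of 82 high tumors lay above the low median.

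Genes of the list past the threshold included antiviral effectors and regulators of the pathway. Ifit3 differed by 0.86, Rsad2, which encodes the antiviral enzyme viperin, by 0.80, Trim30a by 0.77 and the immunity-related GTPase gene Iigp1 by 0.74. Mx2 differed by 0.70 and Mx1 by 0.40, both annotated as transcribed pseudogenes in the reference strain, and Bst2, which encodes tetherin, by 0.55. Of the transcription factors that carry the interferon signal, Stat2 differed by 0.39 (adjusted p = 0.00129, limma) and Irf9 by 0.30 (adjusted p = 3.81e-05, limma). Of the RNA sensors, Dhx58 differed by 0.55, Ddx58 by 0.38 and Ifih1 by 0.33, all past the threshold. The chemokine genes Cxcl9 (0.52) and Cxcl10 (0.29), which draw T cells, passed as well. The 13 genes that did not pass had positive differences from 0.091 to 0.48, among them Ifi27l2a, Samd9l, Slfn8 and Ifit2.

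**Figure D3:**
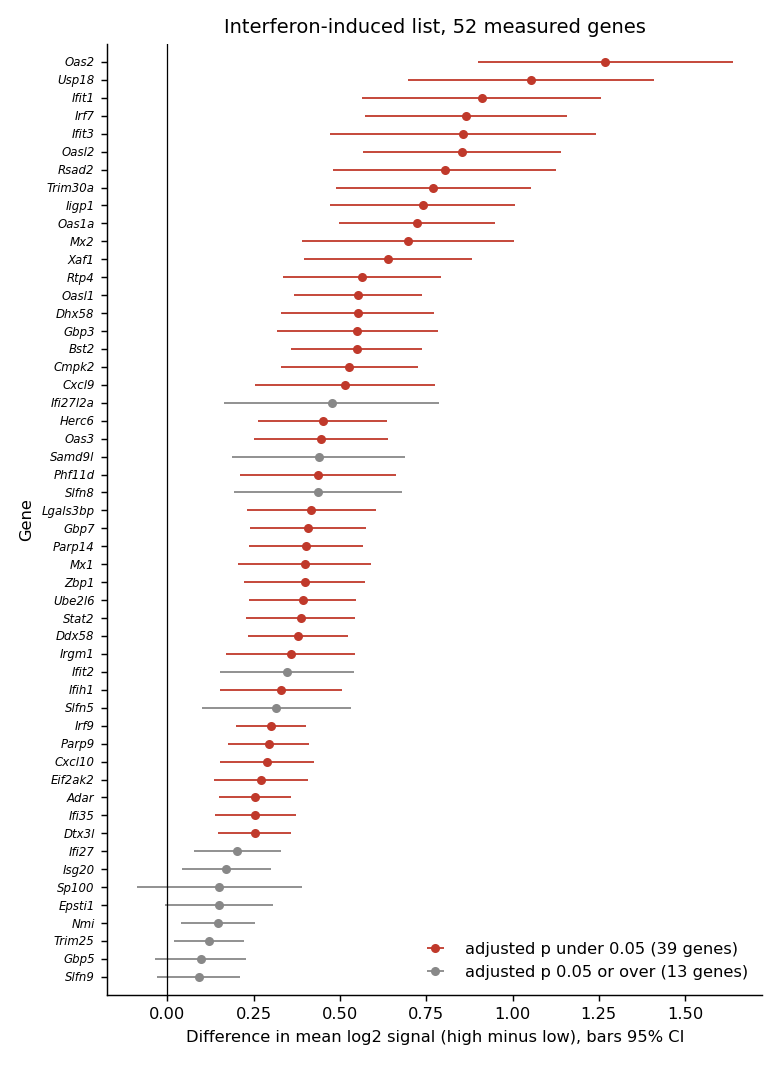
Difference in mean log2 signal, high minus low (horizontal axis), of the 52 measured interferon-induced genes (vertical axis), with bars for the 95% confidence interval. Red points are the 39 genes with an adjusted p under 0.05 and grey points the other 13. All 52 points lie above 0, from 0.091 to 1.27 (Oas2).

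The count for this list was also taken in subsets of the animals. In the 79 tumors with an even animal number, 28 of the 52 genes passed, and in the 80 with an odd animal number, 1 passed. The median difference was 0.53 in the even and 0.37 in the odd animals, and the number of positive differences was 52 and 51. These subsets hold fewer tumors than the whole, and the difference between odd and even animals was not tested. Over all 18953 genes, 58 passed in the even and 7 in the odd animals.

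Interferons, their receptors and the sensors upstream of them were counted separately. The RNA sensor genes Ddx58, Ifih1 and Dhx58, and Irf7, all past the threshold, were counted in the interferon-induced list and not here. The counts therefore depend on how the lists were divided. Of 27 measured genes, Usp18, which is on both lists, was the only one past the threshold in limma and in the rank test. The median difference was 0.015. Without the T cell-rich tumors 2 of the 27 passed. The type I interferon genes Ifnb1 (0.04), Ifna2 (-0.01) and Ifna4 (0.00) had mean signals of 5.37, 5.56 and 5.13, below the background level. Ifng, the gene of interferon gamma, lay near it at 5.80 with a difference of 0.05 (adjusted p = 0.24, limma). The interferon lambda gene Ifnl2 had a mean signal above background, 8.77, and a difference of 0.015 (adjusted p = 0.90, limma). The receptor genes Ifnar1 (-0.02), Ifnar2 (-0.05), Ifngr1 (0.03) and Ifngr2 (-0.04) and the kinase genes Jak1 (-0.04) and Tyk2 (-0.01) had mean signals above background and did not pass. For Ifnar1 the 95% confidence interval of the difference was -0.086 to 0.036. Mavs and Sting1, adaptors of RNA and DNA sensing, had 0.03 and -0.00.

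Genes of antigen presentation on MHC class I, many of which respond to interferon, rose in part. Of 10 measured, 5 were higher, and all 10 differences were positive with a median of 0.23. The peptide transporter genes Tap1 (0.36) and Tap2 (0.20) passed, as did the immunoproteasome genes Psmb8 (0.34) and Psmb9 (0.26) and the class I gene H2-Q4 (0.38). B2m had 0.17 (adjusted p = 0.20, limma). Of 7 MHC class II genes 0 passed in limma and 1 in the rank test, with a median of 0.18 and 1 at an unadjusted p under 0.05.

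Among the 66 genes that were higher outside the interferon-induced list, several are known in the mouse as responsive to interferon or as close relatives of listed genes. Ddx60, a helicase gene, differed by 0.67, Gm4951, an interferon-inducible GTPase gene, by 0.65 and Lgals9, which encodes galectin 9, by 0.55. Oas1b, annotated as a transcribed pseudogene in the reference strain, differed by 0.55, Ifit3b by 0.54 and Parp12 by 0.42. The mean signal of Ifit3b over all tumors, 5.43, lies below the background level of 5.76. Probe sets of close relatives such as Ifit3 and Ifit3b can read each other's transcripts, which was not tested. Mov10, Trim21, Trafd1, Tor3a and Tdrd7 differed by 0.21 to 0.36. Cfb, the gene of complement factor B, differed by 0.53 (adjusted p = 0.018, limma).

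The promoters of 3 of the interferon-induced genes are shown because they carry the letters TTTCNNTTTC, a form of the interferon-stimulated response element, in capitals. Sequences are from RefSeq (GRCm38.p6), each from 250 bases before to 50 bases after the annotated start, 5′ to 3′ on the strand of the gene: Ifit1 at chr19:34640639-34640938 on the plus strand, Ifit3 at chr19:34583279-34583578 on the plus strand and Rsad2 at chr12:26456403-26456702 on the minus strand.
Ifit1: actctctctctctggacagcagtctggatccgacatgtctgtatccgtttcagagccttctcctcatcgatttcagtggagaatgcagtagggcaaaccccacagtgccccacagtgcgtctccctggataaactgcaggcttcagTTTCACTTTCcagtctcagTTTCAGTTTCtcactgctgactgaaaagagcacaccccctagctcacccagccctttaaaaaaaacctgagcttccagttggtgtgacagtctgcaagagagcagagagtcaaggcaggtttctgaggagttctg
Ifit3: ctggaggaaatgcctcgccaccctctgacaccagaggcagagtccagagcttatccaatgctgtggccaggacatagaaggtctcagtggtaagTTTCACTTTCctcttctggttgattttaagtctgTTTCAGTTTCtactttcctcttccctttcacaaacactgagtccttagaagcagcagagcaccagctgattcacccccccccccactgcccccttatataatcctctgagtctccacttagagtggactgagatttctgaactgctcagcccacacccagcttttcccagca
Rsad2: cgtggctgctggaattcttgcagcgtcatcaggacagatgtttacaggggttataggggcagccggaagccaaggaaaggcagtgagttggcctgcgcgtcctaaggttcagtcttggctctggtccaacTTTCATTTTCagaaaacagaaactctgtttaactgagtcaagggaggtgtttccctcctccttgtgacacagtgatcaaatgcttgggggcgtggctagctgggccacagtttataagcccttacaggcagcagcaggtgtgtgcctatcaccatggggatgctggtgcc

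In Ifit1 the nearer of 2 matches begins 85 bases before the start, in Ifit3 both matches begin over 100 bases before it, and in Rsad2 the match begins 120 bases before it. TTTCNNTTTC, searched on both strands, was found in 15 of the 29 interferon-list genes past the threshold that have a promoter entry (51.7%; the list had 39 such genes in all). It was found in 4 of 11 list genes that did not pass, in 10 of 49 higher genes outside the list (20.4%) and in 1 of 29 lower genes (3.45%). Over all 27025 genes with a promoter entry the share was 3.99%, and over the 14878 measured ones 3.91%. The motif TTCNNNGAA, a form of the STAT site, was found in 6 of the 29 (20.7%) against 9.55% of all genes. TTCNNNGAA and TTTCNNTTTC can overlap, and a match describes letters and not binding.

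Genes that were lower in high tumors away from BC018473 were fewer, and their differences were small. Prr14l (chromosome 5) had values of 9.19, 9.46 and 9.83 in the high tumors and 9.13, 9.73 and 10.02 in the low tumors. Only 3 of 82 high tumors lay above the low median. The difference was -0.27 ± 0.027 (SE; adjusted p = 2.01e-14, limma), and it ranged only from -0.28 to -0.23 over the 5 blocks. Tcf20 (chromosome 15), a transcriptional coregulator gene, had values of 8.42, 9.56 and 10.04 in the high tumors and 9.37, 9.80 and 10.06 in the low tumors, with a difference of -0.23 ± 0.028 (SE; adjusted p = 4.89e-10, limma). For Tcf20, 5 high tumors lay above the low median and 9 lay below the lowest low tumor. Zfp644, a zinc finger gene on chromosome 5, differed by -0.21 ± 0.035 (SE; adjusted p = 2.05e-05, limma) and Satb1, the gene of a chromatin organizer active in T cells, by -0.34 ± 0.075 (SE; adjusted p = 0.00331, limma). Others past the threshold were Apc (-0.14), a negative regulator of Wnt signaling, Bach2 (-0.21), a transcriptional repressor of lymphocytes, and Lrba (-0.18).

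The probe set of Mir669b, a miRNA gene on chromosome 2, also separated the groups. Its values were 4.55, 5.07 and 5.40 in the high tumors and 4.60, 4.84 and 5.16 in the low tumors, and 30 of 82 high tumors lay above the highest low tumor. The difference was 0.22 ± 0.023 (SE; adjusted p = 2.01e-14, limma). In a random pair of 1 high and 1 low tumor, the high tumor had the greater signal in 87.1% of pairs for Mir669b, in 89.4% for St6galnac1, in 12.9% for Prr14l and in 77.5% for Oas2. The whole range of Mir669b lies below the background level of 5.76, so it is not known whether its signal stands for that RNA. The same holds for the keratin-associated protein gene Krtap31-2 on chromosome 11, 16818 kb from BC018473, with a mean signal of 5.04 and a difference of 0.14 ± 0.021 (SE; adjusted p = 6.53e-06, limma).

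**Figure D4:**
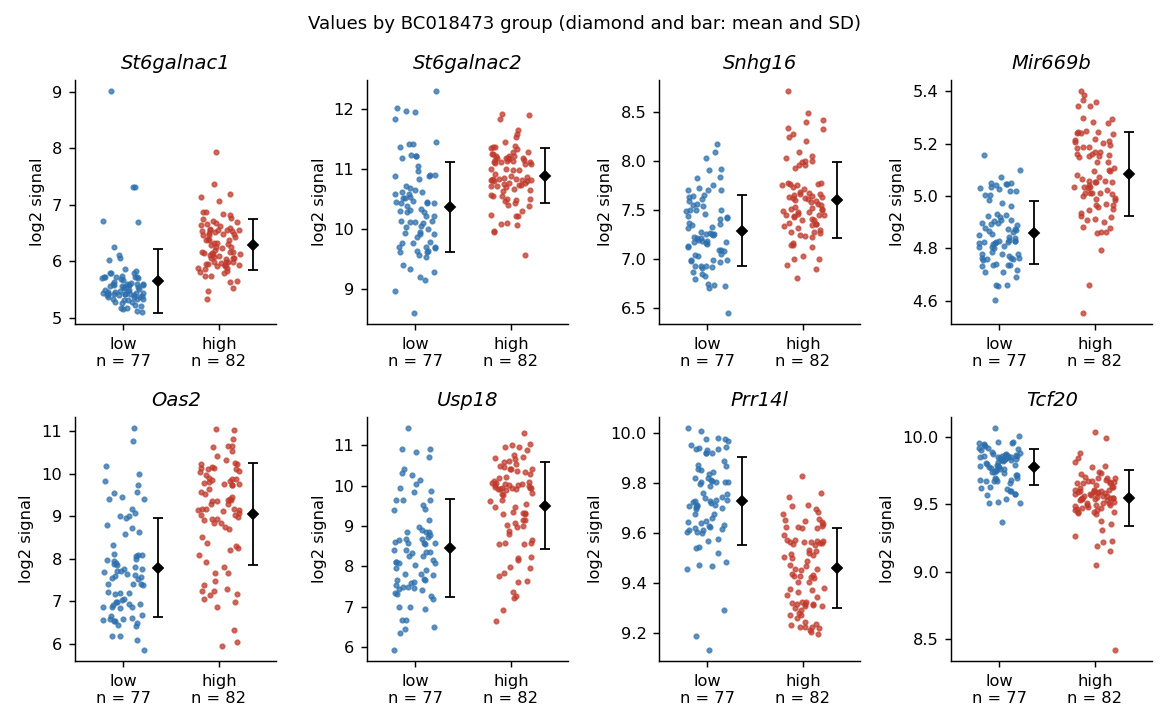
Log2 signal (vertical axes) of 8 genes in the 77 low (blue) and 82 high (red) tumors, each point a tumor, with a diamond and bar for the mean and SD. St6galnac1, St6galnac2, Snhg16, Mir669b, Oas2 and Usp18 were higher and Prr14l and Tcf20 lower in high tumors, and the groups overlap in every panel.

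Genes of the cell types a mammary tumor can hold were also counted. Lists in which 0 genes passed the threshold in limma were put together, so that count was fixed by the choice of lists. They were MHC class II (7 measured), T cell (14), NK cell (10), B cell (11), macrophage and dendritic cell (14), neutrophil (9) and adipocyte (12). The rest were endothelial (10), fibroblast (14), luminal (11), milk (11), proliferation (19), skeletal muscle (10), squamous (10) and hypoxia (11). Together these lists held 173 measured genes. Left out, besides the interferon lists, were MHC class I (5 of 10 past the threshold), myoepithelial (2 of 10) and sialyltransferase (2 of 16) genes. Over all genes the share was 0.754%. At an unadjusted p under 0.05 in limma, 20 of the 173 were higher and 8 lower, against 14.4% of all genes in either direction. In the rank test 31 were higher and 0 lower at that cutoff, against 2953 of all 18953 genes, and 3 passed with adjustment. Without the 6 T cell-rich tumors 57 were higher and 1 lower in limma, against 3349 of all genes, and 9 passed with adjustment. T cell genes, which set those 6 tumors apart, made up 10 of the 57 and 3 of the 9. The lowest median difference among these lists was -0.19 (B cells) and the highest 0.43 (skeletal muscle). The mean signal of the B cell list had a median of 5.67 and a highest value of 7.29 in the high tumors. In the low tumors these were 5.63 and 9.38. At an unadjusted p under 0.05, 6 of 11 B cell genes were lower and 0 higher in limma. In the rank test, and in limma without the T cell-rich tumors, 2 were higher and 0 lower. The mean signal of the T cell list was 5.62 to 6.26 in the high tumors, with a median of 5.92, and 5.63 to 9.18 in the low tumors, with a median of 5.81. The low range thus reaches far above the high range, and the 6 T cell-rich tumors were all low. Without these 6 tumors 402 genes passed, 303 higher and 99 lower, and 47 interferon-induced genes were among them. The differences of the T cell receptor genes Cd3e and Cd3g were then 0.25 and 0.32. The 6 tumors were set apart by a score that includes these genes, and all were low. Leaving them out therefore raises the differences of T cell genes by construction, and no p-value is given for them. With all tumors Cd3e and Cd3g had differences of -0.01 and -0.00. At an unadjusted p under 0.05 with all tumors, 0 of 14 T cell genes were higher and 1 lower in limma. In the rank test 7 were higher and 0 lower, and 1 passed with adjustment.

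Macrophage and dendritic cell genes had positive differences in 12 of 14, with a median of 0.12, and their mean signal was 7.18 to 9.08 in the high tumors and 7.33 to 9.02 in the low tumors. At an unadjusted p under 0.05, 6 of the 14 were higher and 0 lower in limma, and 9 and 0 in the rank test. With adjustment 0 passed in either. Without the T cell-rich tumors 10 were higher at the unadjusted cutoff in limma and 2 passed with adjustment. Whether immune cell content has a part in the interferon difference was not tested beyond a fit with T cell, adipocyte and proliferation scores as covariates, in which 42 of the 52 interferon-induced genes passed. Of the myoepithelial genes, Cnn1 (0.61; adjusted p = 0.0328) and Acta2 (0.34; adjusted p = 0.0291), which encode the smooth muscle proteins calponin and actin, passed in limma, and all 10 measured had positive differences, while both had a negative difference in 1 of the 5 blocks. The adipocyte list had 12 of 12 positive differences (median 0.32) and the skeletal muscle list 10 of 10 (median 0.43). In both, 0 genes were past the threshold in limma or in the rank test. At an unadjusted p under 0.05 in limma there were 2 adipocyte and 4 skeletal muscle genes. Without the T cell-rich tumors these counts were 11 and 4. The adipocyte signal ranged from 6.32 to 11.32 in high and from 6.21 to 10.74 in low tumors, so its spread within each group was far wider than the difference.

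Correlations of BC018473 with 14 genes (the 5 that differed within 1 Mb, the 6 largest of the interferon-induced list and the 3 smallest p elsewhere) were computed within each group, since pooled values fall into separate clusters. They are a description without a test, because BC018473 set the groups and the genes were taken from the comparison of these groups. In the 82 high tumors St6galnac1 had Pearson's r = 0.494 and Spearman's rho = 0.623 with BC018473, and St6galnac2 had r = 0.447 and rho = 0.490. Without the 2 tumors farthest from the median of BC018473, r was 0.513 and 0.387, and with block means removed it was 0.476 and 0.491. Snhg16 had r = 0.269 and rho = 0.120, and r was 0.139 without those 2 tumors. Ifit1 had r = 0.284 and rho = 0.415, and r was 0.458 without the 2 tumors. Spearman's rho was 0.326 for Irf7, 0.337 for Ifit3, 0.293 for Usp18, 0.294 for Oasl2 and 0.175 for Oas2. Pearson's r was smaller for these 5 genes, at 0.196, 0.204, 0.181, 0.172 and 0.0989 in the same order. Mir669b had r = 0.331 and rho = 0.244. Prr14l and Tcf20 had r of -0.110 and 0.125, and rho of -0.0220 and -0.126. Of the 2 lower neighbors, Mir6516 had r = 0.192 and rho = 0.249, opposite in sign to its difference between the groups. Cdk3 had r = -0.0216 and rho = 0.0401.

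In the 77 low tumors r ranged from -0.156 to 0.0924 over the 14 genes. St6galnac1 had r = 0.0639 and rho = 0.235 there, and St6galnac2 r = -0.0171 and rho = 0.0233. The difference between the groups in these correlations was not tested, and 45 of the 77 low tumors lie at or below the background level for BC018473.

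**Figure D5:**
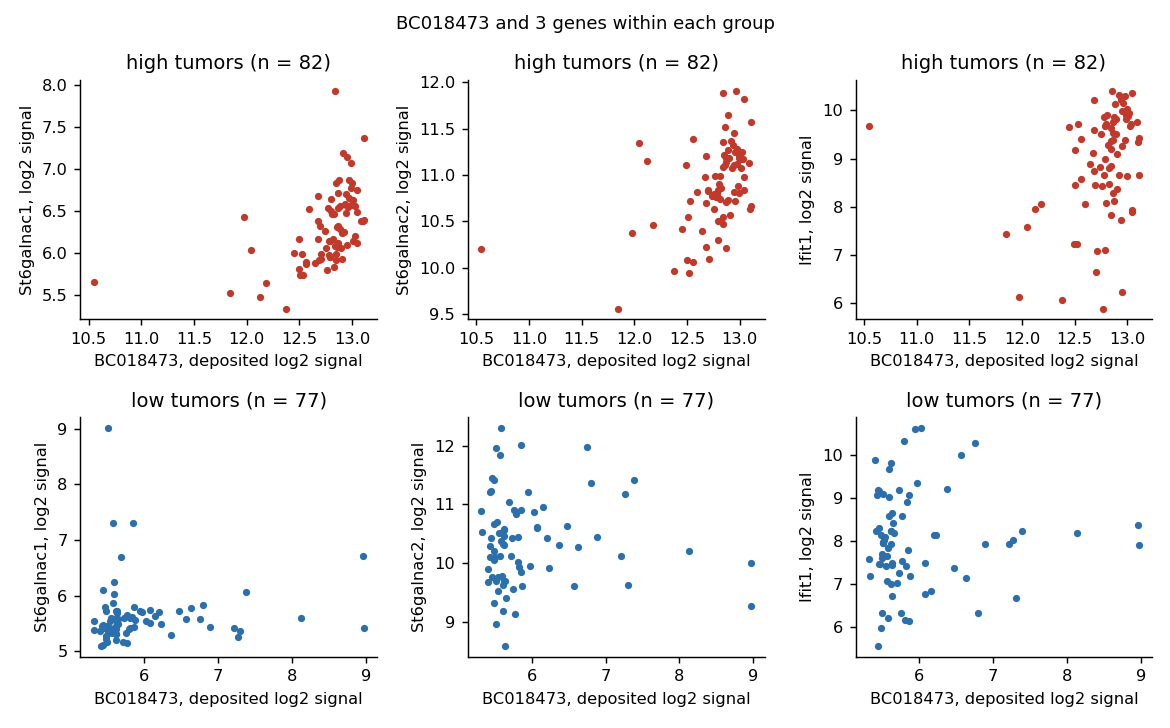
Log2 signal of St6galnac1, St6galnac2 and Ifit1 (vertical axes) against deposited log2 signal of BC018473 (horizontal axes) in the 82 high tumors (upper row, red) and the 77 low tumors (lower row, blue), each point a tumor. In the high tumors r was 0.494, 0.447 and 0.284, and in the low tumors 0.0639, -0.0171 and 0.0388.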

How the data were processed

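The authors imported the arrays of the 159 tumors into BRB ArrayTools (version 4.3.2 per the labels), scaled them to the median array and made no batch correction. The deposited values are log2 signals. How probes were background-corrected and summarised was not given in the sources used here. Groups were set on the deposited values, and for all other values every array was moved by its median difference to the median array.

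The platform annotation gave the gene of each probe set, and 18940 of 18965 probe sets with a single symbol had their symbol checked by gene identifier. Probe sets with several symbols (688) or without an entry (1065) were not used. Where a gene had several probe sets, the one with the highest mean was taken, which left 18954 genes with positions on GRCm38. The threshold of 9.4, the members and the gene lists were chosen with earlier results of these data known. All genes but BC018473 were fitted in limma 3.58.1 (lmFit and eBayes with trend and robust, R 4.3.3) as high against low tumors, two-sided, with Benjamini-Hochberg adjustment over 18953 genes and a threshold of 0.05. Error terms of means are SD over tumors and those of differences are SE of the fit. Signals of different genes depend on their probes and are not compared as levels of RNA.

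Genes were named by rule: those within 1 Mb of BC018473, the 10 largest differences in each direction among genes past the threshold on chromosome 11 within 20 Mb and elsewhere, the genes past the threshold in each list (up to 4 for cell type and pathway lists) with the most variable members, and those with the strongest correlation with BC018473. Further list members, genes higher outside the interferon-induced list and genes lower elsewhere were picked after their values were seen.

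Array medians and correlations between arrays were compared by two-sided permutation tests with 100000 resamples. Promoters and miRNAs were matched by gene identifier or symbol to RefSeq tables of GRCm38.p6. Alternatives were other array scalings, probe set choice, filters, covariates, tests and subsets of tumors. Calculations used Python 3.11.15 (pandas 2.3.3, numpy 2.4.6, scipy 1.17.1; plots by matplotlib 3.10.9). The number of arrays limits the precision. Metastasis, survival, genotypes and the other experiments of the study were not analysed here.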

Additional observations from a re-analysis of the deposited data

How the results depend on the processing

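Every gene past the threshold kept its direction under each of the 14 alternatives in which it was tested. The total was 217 with the rank test, 58 in even and 7 in odd animals and 402 without the T cell-rich tumors, an alternative added after the data were seen. Higher genes numbered 50 in even animals, 4 in odd animals and 303 without the T cell-rich tumors. Lower genes numbered 23 with animal-number blocks in the fit, 61 without the 2 tumors within 0.5 of the threshold, 64 with T cell, adipocyte and proliferation scores, 66 with the rank test, 8 in even animals, 3 in odd animals and 99 without the T cell-rich tumors. Genes past the threshold within 1 Mb were 1 in odd animals, and within 20 Mb they were 1 in odd animals, 8 in even animals and 24 without the T cell-rich tumors. The interferon-induced list had 1 gene past the threshold in odd animals. The cell type and pathway lists, both interferon lists left out, together had 9 genes past it with all tumors, 1 in odd animals, 3 in even animals and 23 without the T cell-rich tumors. The difference in means of Cd3e went from -0.01 to 0.25 without the T cell-rich tumors, and that of Cd3g from -0.00 to 0.32. Both genes were part of the score that set those tumors apart, so a rise was built in. With all tumors, the value of Cd3e given with the rank test, a difference in medians, was 0.23. The odd and even sets hold 80 and 79 tumors and so have less power; the cause of the gap between them was not tested.

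St6galnac1, Oas2, Prr14l and Tcf20 passed in all 14 alternatives. Their highest adjusted p (limma or rank test) was 0.0165, 0.0198, 0.000448 and 0.0021. Mir669b passed in the 13 alternatives that tested it. St6galnac2, Usp18, Ifit1, Irf7, Oasl2, Mir6516 and Zfp644 each passed in 13 of 14, and Snhg16, Cdk3 and C1qtnf1 in 12 of 14. Cygb passed with the cell scores (0.19; adjusted p = 0.0403, limma) and without the T cell-rich tumors (0.33; adjusted p = 0.00506, limma). No paired analysis was possible because the labels hold a single group of tumors.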
